A study of Homo sapiens with 6 samples.

Results

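Short regions of m6A signal, no wider than 100 bp, were examined in the RNA of HEK293T cells, an established line derived from human embryonic kidney. Of 25737 regions with a peak in any of 3 peak lists, 1992 (7.74%) were that narrow, and they held 0.801% of the bases in all regions. They were chosen by the measured start and end of their peaks. Peaks of the 3 lists that shared 1 bp or more on the same strand were joined, and a region was kept where the distance from its lowest start to its highest end was 100 bp or less, in however many lists it lay. Width is therefore no finding here. Score, recurrence and edges come from the same peak calls, so they are given as descriptions with no test.

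Each list came from 1 of 3 repeats of methylated RNA immunoprecipitation sequencing (MeRIP-seq), named MeRIP 1, MeRIP 2 and MeRIP 3, in HEK293T cells for which the labels name no genotype and no treatment. In each repeat, RNA fragments bound by an antibody were sequenced (IP) beside RNA that was not pulled down (input). The series asks how SF3B4, a subunit of the SF3b complex of the spliceosome, recognises RNA that the enzyme METTL16 has methylated. The labels give 6 samples, 3 IP and 3 input, and tie 1 peak list to both samples of a repeat. Whether the repeats were separate cultures is not stated, and a spread between lists may therefore be technical.

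N6-methyladenosine (m6A) is the commonest internal mark of mRNA. It is placed mostly by the METTL3 and METTL14 complex, while METTL16 marks a separate set of RNAs that includes hairpins of the MAT2A mRNA. In mRNA, m6A is known to be dense in long internal exons and in last exons near stop codons. It is known to be sparse in short internal exons, where exon junction complexes left by splicing keep the methylating enzymes away from the RNA next to the junctions. Short exons are spread over many genes, and the genes of collagens are textbook cases of long series of short exons built in units of 9 bases. The 1992 regions are called short regions for their width, which is that of short exons. Whether they are exons was not analysed here, and they are named by position (hg19, counted from 1). They are set beside all regions and beside the next width class, the 6264 regions over 100 and up to 200 bp.

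The short regions spanned 4 to 100 bp, with a median of 78 bp and lower and upper quartiles of 63 and 90 bp. They numbered 1413 in the list of MeRIP 1, 1203 in that of MeRIP 2 and 1235 in that of MeRIP 3, so MeRIP 1 had the most. Single peaks of up to 100 bp made up 6.40 ± 0.329% of a list's peaks (SD, n = 3 lists). A further 29, 19 and 20 peaks of that size in MeRIP 1, 2 and 3 lay inside wider regions and were left out by the rule.

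Fewer short regions than wider ones were found in every repeat. Of the 1992, 697 had a peak in all 3 lists, which is 35.0% (95% Wilson interval 32.9 to 37.1%), against 59.3% of all regions. Another 465 (23.3%) lay in 2 lists and 830 (41.7%) in 1 list. Of all regions, 17.9% lay in 2 lists and 22.8% in 1 list, and of the next width class 22.5% and 32.0%. With 1 repeat left out, the share in both remaining lists was 52.7% without MeRIP 1, 48.4% without MeRIP 2 and 47.5% without MeRIP 3. In the next width class, 45.4% (44.2 to 46.7%) were in all 3 lists, and among regions over 1000 bp 81.5% (80.5 to 82.4%) were. A further list can leave a merged region as wide as it was or make it wider. Width and number of lists are therefore tied in part by the merging itself. Intervals here and below cover counting error only, and neighbouring regions are not independent of one another. The lists hold no peak with a score under 50, so a region missing from a list has no value there.

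The narrowest regions recurred least. Of the 30 regions of up to 25 bp, 1 (3.33%, 0.591 to 16.7%) was in all 3 lists and 24 (80%) were in 1 list. From 26 to 50 bp, 25.4% (19.7 to 32.1%) of 185 regions were in all 3 lists. The share was 35.6% (32.0 to 39.3%) of 669 regions from 51 to 75 bp and 37.1% (34.3 to 40.0%) of 1108 regions from 76 to 100 bp, so these last intervals overlapped. At the limit itself, 19 of the 43 regions of 99 bp were in all 3 lists, with a median highest score of 186, and 12 of the 45 regions of 100 bp, with 146. Of the 36 regions 1 bp over the limit, 15 were in all 3 lists, with a median highest score of 118, and of the 58 that were 2 bp over it, 24 were, with 194. No step at the limit is read from these values.

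**Figure D1:**
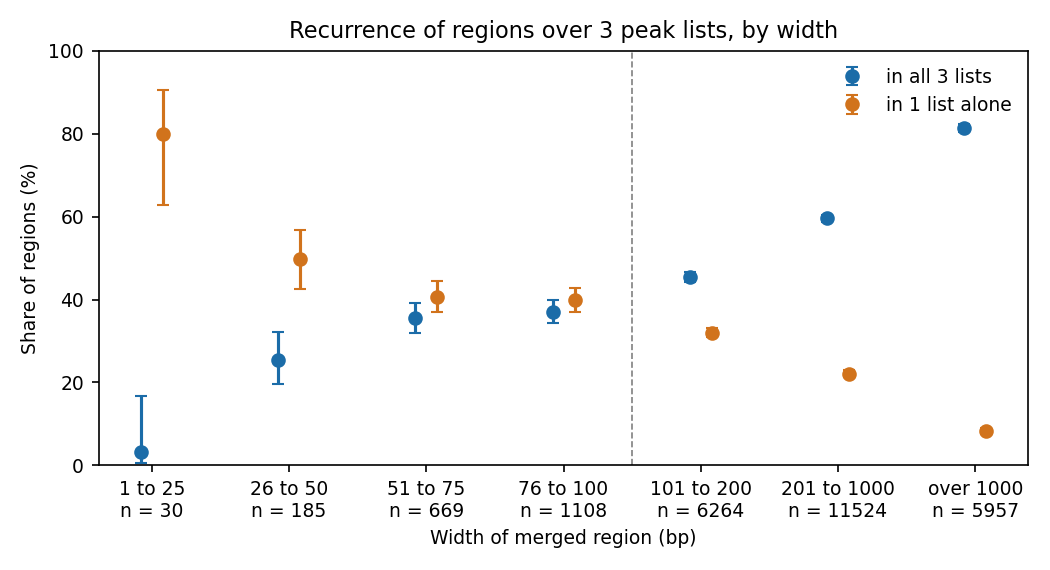
Share of regions (percent, y axis) found in all 3 lists (blue) and in 1 list alone (orange), by width of the merged region in bp (x axis), with 95% Wilson intervals and the number of regions in each class. The dashed line marks 100 bp: to its left the share in all 3 lists runs from 3.33% to 37.1%, and over 1000 bp it is 81.5%. Width and number of lists are tied in part by the merging of peaks.

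The list of MeRIP 1 held the most short regions of its own. Of its 1413 short regions, 399 were in no other list (28.2%, 26 to 30.6%), against 211 of 1203 in MeRIP 2 (17.5%, 15.5 to 19.8%) and 220 of 1235 in MeRIP 3 (17.8%, 15.8 to 20%). Over regions of all widths these shares were 12.7%, 7.89% and 8.14%. A mean of 54.6 ± 4.60% of a list's short regions lay in all 3 lists (SD, n = 3 lists), and 75.3 ± 2.82% of a list's regions of all widths did.

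The score is the authors' value for each peak. It runs from 50 to 3100, a value that many peaks share and a few exceed, and it has the form of a negative log10 p-value times 10, although no header says so. It is not read as a level of methylation, since a value of that form would also depend on coverage and width. Short regions had low scores: their medians in the lists of MeRIP 1, 2 and 3 were 139, 147 and 152.5, a mean of 146.1 ± 6.78 (SD, n = 3 lists). The next width class had medians of 187.5, 180.4 and 194, and regions of all widths 424, 423.5 and 446. The groups of 3 medians did not overlap. Within the short regions, score hardly moved with width: Spearman's rho of width and highest score was 0.06 over all 1992 and 0.00 over the 697 in all 3 lists, as a description across regions.

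Short regions in all 3 lists had median scores of 237, 231 and 246 in MeRIP 1, 2 and 3, and short regions in 1 list alone 79.6, 81.5 and 79.4. A highest score of 1000 or more was reached by 152 short regions (7.63%, 6.54 to 8.88%), against 33.1% of all regions and 14.1% (13.2 to 14.9%) of the next width class. The score of 3100 or more was reached in at least 1 list by 40 short regions (2.01%) and in every list by 17 (0.853%). Of all regions, 17.3% reached it in at least 1 list and 11.2% in every list. In the next width class 3.88% and 1.69% did.

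At a like highest score, the share in all 3 lists was set beside that of the next width class in 6 bands, and the intervals lay apart in 1 of them. With a highest score from 200 to below 500, 58.1% of 413 short regions were in all 3 lists (53.3 to 62.8%), against 67.5% (65.0 to 69.9%) of the next width class. In the other bands they overlapped, which does not show that the shares were equal. In each band from 100 upward, short regions had the lower share. Below 100 the shares were 4.76% (3.41 to 6.61%) and 4.52% (3.65 to 5.60%), and from 100 to below 200 they were 30.6% (26.8 to 34.6%) and 33.7% (31.4 to 36.1%). From 500 to below 1000 they were 73.7% (67.1 to 79.4%) and 81.5% (78.4 to 84.3%), and from 1000 to below 3100 they were 77.7% (69.1 to 84.4%) and 84.3% (81.3 to 86.9%). Over all regions the shares were 5.11% below 100, 33.7% from 100 to below 200 and 64.2% from 200 to below 500. They were 81.9% from 500 to below 1000 and 89.1% from 1000 to below 3100. Of the 40 short regions at 3100 or more, 29 were in all 3 lists (72.5%, 57.2 to 83.9%), against 81.9% (76.6 to 86.2%) of the next width class and 92.9% (92.1 to 93.6%) of all regions at that score. The highest score is taken over the lists that have the region, so it is itself tied to the number of lists.

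Across short regions found in both lists of a pair, in the third list or not, the scores were correlated. Below 3100, Spearman's rho across regions was 0.71 for the lists of MeRIP 1 and 2 (815 regions), 0.71 for those of MeRIP 1 and 3 (842) and 0.76 for those of MeRIP 2 and 3 (818). On the log2 scale, Pearson's r for the same pairs came to 0.75, 0.75 and 0.80. Regions share their libraries and are no replicates. The mean rho of 0.73 ± 0.03 (SD over 3 pairs, which share lists) lay beside 0.76 ± 0.02 for the next width class and 0.80 ± 0.02 for all regions. Among the 668 short regions in all 3 lists and below 3100, the highest and lowest scores lay within 2-fold in 352 (52.7%). They were more than 10-fold apart in 5 (0.749%). The first share was close to the 53.0% of the next width class and the 52.4% of all regions within 2-fold. More than 10-fold apart were 0.907% of the next width class and 1.61% of all regions. So a short region called in every list had a spread within 2-fold about as often as regions of any width did.

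**Figure D2:**
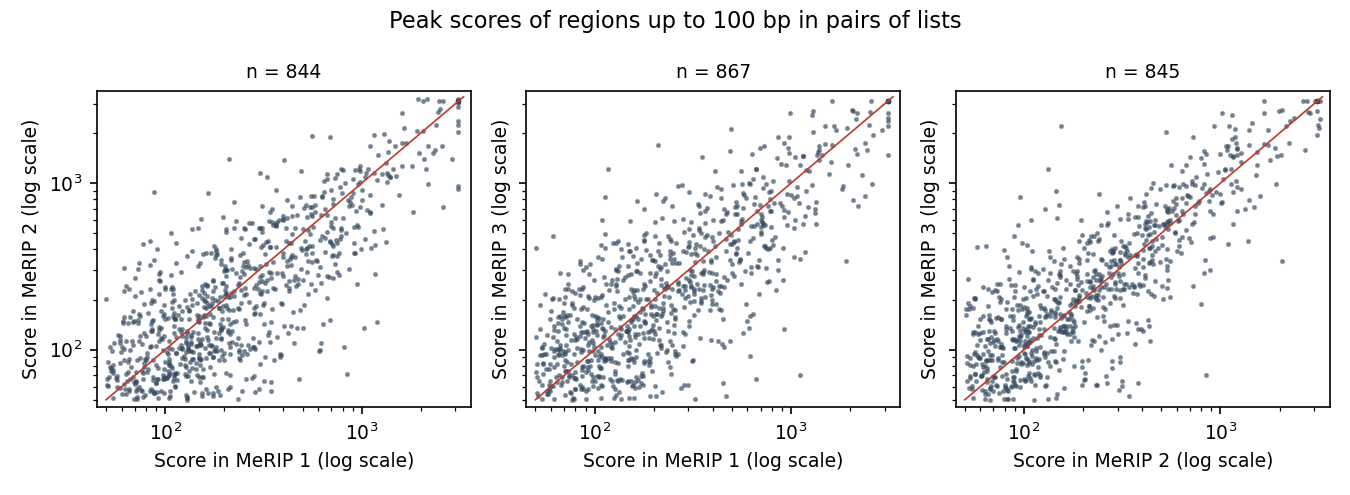
Authors' peak score in one list against another (both axes logarithmic), 1 panel for each pair of lists, 1 point for each short region found in both (844, 867 and 845 points). The red line marks equal scores: points scatter on both sides of it, and a few lie at 3100 in both lists.

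The strongest short regions were at 3100 or more in every list. They measured 34 to 98 bp, with a median of 77 bp. Of the 17, 4 were on chromosome 19, which held 182 of the 1992 short regions and 2118 of the 25737 regions. With so few regions, no concentration is read from this count. The narrowest of them measured 34 bp and lay at 18043824 to 18043857 of chromosome 19, plus strand, scoring 3100 in each list. Its nearest region on that strand lay 10459 bp away and was 478 bp wide. A region of 52 bp at 100774703 to 100774754 on chromosome 9, plus strand, also scored 3100 in each list and had a region of 119 bp 1031 bp away.

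Others at this score were nearly as small. The 54 bp at 160025330 to 160025383 of chromosome 4, plus strand, scored 3100 in each list and stood alone: its nearest region was 198664 bp away. The 57 bp at 4418017 to 4418073 of chromosome 19, plus strand, scored 3100 in each list and belonged to a chain of 8 regions, a chain being regions of 1 strand linked by gaps of at most 10 kb. On the minus strand of chromosome 6, the 58 bp at 136680958 to 136681015 scored 3100, 3208 and 3100 in MeRIP 1, 2 and 3. On the plus strand of chromosome 21, a region of 63 bp at 47410893 to 47410955 scored 3100 in each list, in a chain of 5 regions. Strong short regions thus occurred both alone and among neighbours.

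The narrowest region in all 3 lists was 25 bp wide, on chromosome 15 at 79724858 to 79724882, plus strand, and scored 259.5, 343 and 440.03 in MeRIP 1, 2 and 3. The next, 31 bp at 62831245 to 62831275 of chromosome 20, plus strand, had 210.2, 1401 and 1683, so it was low in MeRIP 1 alone. After it came 33 bp on chromosome 10 at 26991091 to 26991123, plus strand, with 1489.9, 1106 and 2189, where no list was low. In any list, the narrowest were 3 regions of 4 bp, each in MeRIP 1 alone. They lay on chromosome 18 at 20799095 to 20799098 (minus strand, score 353), chromosome 2 at 43019748 to 43019751 (minus strand, score 108) and chromosome 5 at 50074394 to 50074397 (plus strand, score 50.2).

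A few short regions differed widely between lists. The widest spread was in the 76 bp at 15478475 to 15478550 of chromosome 9, minus strand, with 1104 in MeRIP 1, 848 in MeRIP 2 and 70.2 in MeRIP 3, a ratio of 15.7 between the highest and the lowest. The 96 bp at 15469778 to 15469873 of chromosome 19, minus strand, had 838, 71.7 and 229. The 54 bp at 117045989 to 117046042 of chromosome 9, plus strand, had 118, 133 and 1219.9. No single list stood out in the same way: MeRIP 3 was low in the first and high in the last, and MeRIP 1 was high in the other.

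Of the 40 regions at 3100 or more, 6 were in 1 list alone. The narrowest 2, both in MeRIP 3, were 16 bp at 37425903 to 37425918 of chromosome 21, minus strand, and 59 bp at 134981758 to 134981816 of chromosome 10, plus strand. The next, in MeRIP 2, was 63 bp at 47539702 to 47539764 of chromosome 21, plus strand, whose nearest region, 664 bp away, was also 63 bp wide. That neighbour scored 3100 in MeRIP 1 and MeRIP 3 and had no peak in MeRIP 2, so each list had 1 of the pair. None of the 3 named regions had a peak of its own in a further list.

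Among the regions of exactly 100 bp, the 2 whose lowest score over the 3 lists was highest lay on chromosome 8 at 681140 to 681239, minus strand, with scores of 632, 841.5 and 1505, and on chromosome 19 at 41231245 to 41231344, plus strand, with 514, 450.4 and 449. Of those 1 bp wider, the 2 chosen in the same way lay on chromosome 1 at 16248744 to 16248844, plus strand, with 1709, 2162 and 1855, and at 151492642 to 151492742, plus strand, with 1369, 1199 and 717.

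The edges of short regions were the same to the base in nearly all lists that had them. Of the 697 short regions in all 3 lists, each made of 1 peak per list, 670 had identical starts and ends (96.1%, 94.4 to 97.3%), against 72.7% of all regions with 1 peak in each list. The share was 97.9% (97.3 to 98.3%) in the next width class. Of the 465 in 2 lists, 425 had identical edges (91.4%, 88.5 to 93.6%). The share was not computed for wider regions in 2 lists, so it cannot be called particular to short ones. In the 27 with differing edges in 3 lists, the downstream edge was shared by all 3 lists in 19 and the upstream edge in 8, and none had both edges free. Differing edges make a merged region wider, so the rule itself keeps such regions out more often.

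The divisibility of the widths is given as a description, since width chose the regions, and multiples of 9 were looked at after the data were seen. Of the 1992 widths, 803 were divisible by 3 (40.3%, 38.2 to 42.5%), against 37.4% of all regions and 38.9% (37.7 to 40.1%) of the next width class. Widths divisible by 9 numbered 332 (16.7%, 15.1 to 18.4%), against 12.7% of all regions and 13.0% (12.2 to 13.9%) of the next width class. Of the whole numbers from 1 to 100, 33 are divisible by 3 and 11 by 9. Widths divisible by 3 but not by 9 made up 23.6% (21.8 to 25.6%) of short regions and 24.7% (24.2 to 25.3%) of all regions. The share divisible by 9 moved with the width limit, to 19.0% with a limit of 75 bp and 14.0% with 150 bp.

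The commonest width was 90 bp, with 74 regions, where the mean of the 4 widths next to it was 42. The width of 54 bp had 48 regions against a mean of 19.8 at its neighbours, 45 bp had 21 against 5.5, and 63 bp had 39 against 23.2. All 6 multiples of 9 from 45 to 90 bp had more regions than the mean of their neighbours. None of those neighbours is a multiple of 3, so the comparison does not set 9 apart from 3. Most other multiples of 3 in that span also lay above their neighbours, such as 84 bp with 50 against 39.5. The widths of 69 and 75 bp did not, with 23 against 28.2 and 35 against 35.2. Next in number to 90 bp came 96 bp, with 68 against 43.8. By number of lists, multiples of 9 made up 17.8% (15.1 to 20.8%) of short regions in all 3 lists. They made up 18.1% (14.8 to 21.8%) of those in 2 lists and 14.9% (12.7 to 17.5%) of those in 1 list, and these intervals overlapped. Over all widths they made up 12.8% of regions in all 3 lists and 12.1% of those in 1 list.

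**Figure D3:**
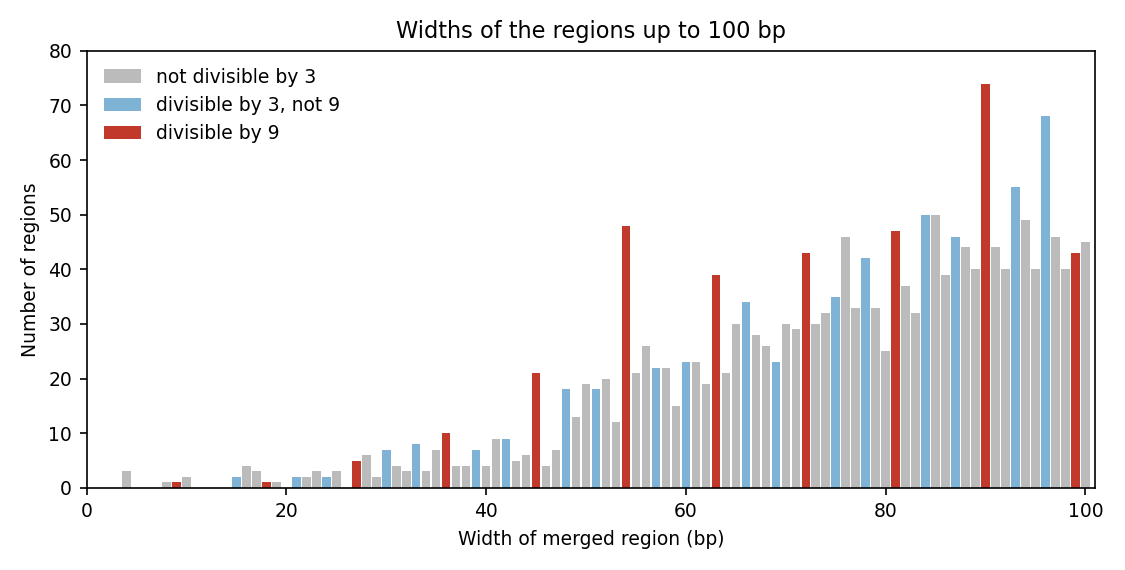
Number of short regions (y axis) at each width in bp (x axis). Widths divisible by 9 are red, other multiples of 3 are blue and the rest are grey: the red bars at 45, 54 and 90 bp, with 21, 48 and 74 regions, rise above the bars beside them.

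Many of the short regions of 54 bp lay in a few chains. In all, 1668 chains, single regions included, held a short region. Most, 1447, held 1 short region, 167 held 2, and 54 held 3 or more, with 211 short regions between them. The 3 chains with the most were on chromosomes 9 and 10. The next in size, on chromosome 19, and a chain of 5 on chromosome 9 are described as well, and were picked after their values were seen.

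The first chain ran over 74.1 kb of chromosome 9, at 137642636 to 137716701 on the plus strand. It held 18 regions, of which 12 were short. Of the short ones, 7 measured 54 bp, 3 measured 45 bp, 1 measured 90 bp and 1 measured 93 bp. Of the 6 wider regions, 5 measured 108 bp, so 16 of the 18 widths were multiples of 9. Scores were low, from 50.8 to 438, and 5 of the 12 were in all 3 lists. The region of 54 bp at 137674513 to 137674566 scored 243, 227 and 113 in MeRIP 1, 2 and 3. The region of 90 bp at 137696821 to 137696910 had 213, 208 and 438.

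The second chain lay on chromosome 10 at 71677045 to 71707098, plus strand, with 10 short regions among 11. Their widths ran from 17 to 87 bp and 6 were multiples of 9. In all, 5 were in every list. Of these, 69 bp at 71685560 to 71685628, had 268.5, 431 and 333.5, and 81 bp at 71697391 to 71697471, had 346, 271 and 290.3. The 1 wider region of the chain, 153 bp at 71690156 to 71690308, scored higher than both in each list, with 778, 663 and 502.

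The remaining chain of these 3 lay on chromosome 9 at 117012895 to 117054490, plus strand, and held 13 regions in 41.6 kb. Of its 9 short regions, 8 were 54 bp wide and the other 57 bp, while its 4 wider regions were all 108 bp. Scores rose higher than in the first chain, up to 1331 for a short region, but 2 of the 9 were in all 3 lists. The 54 bp at 117047004 to 117047057 had 907 in MeRIP 1, 868 in MeRIP 2 and no peak in MeRIP 3. The wider regions were more regular: all 4 were in all 3 lists, and that at 117044737 to 117044844 had 1817, 1580.1 and 1759. Upstream on the same strand, at 116993359 to 117002553, a chain of 5 regions was made of short ones alone, 4 of 54 bp and 1 of 45 bp, with scores from 70.5 to 429.

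**Figure D4:**
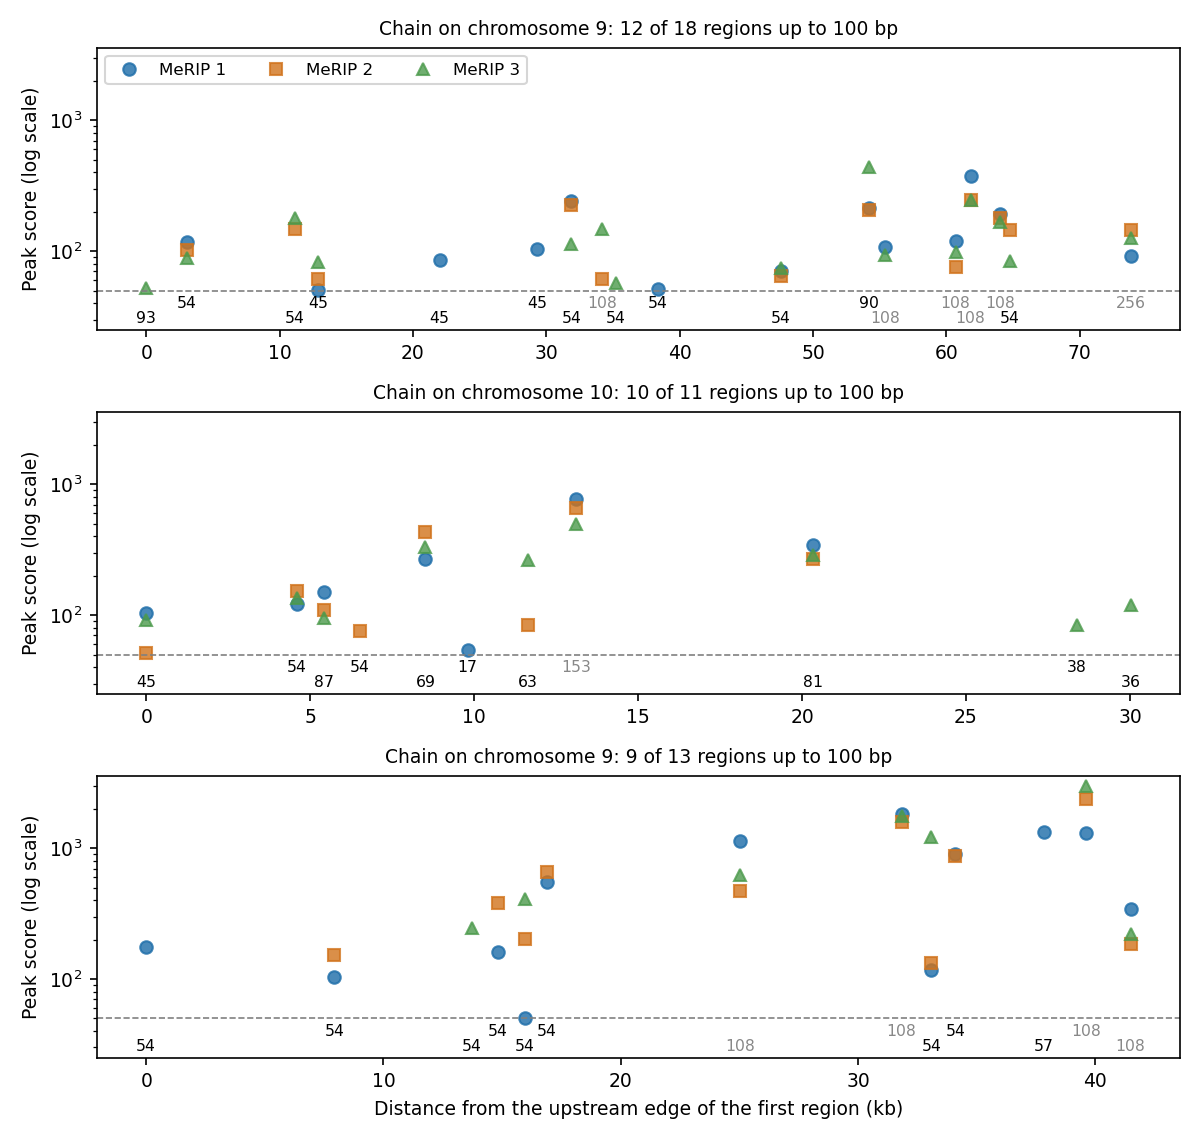
Authors' peak score (y axis, logarithmic) of each region in the 3 chains with the most short regions, by distance in kb from the upstream edge of the first region (x axis), with 1 symbol for each list that has a peak. Numbers under the dashed line, which marks the lowest score of 50, are widths in bp (black up to 100 bp, grey above); 54 and 108 recur in both chains of chromosome 9.

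These 4 chains held 36 short regions, 30 of the 332 with widths divisible by 9, and 21 of the 48 short regions of 54 bp. Without them, 15.4% (13.9 to 17.1%) of short widths were divisible by 9 and 1.38% were 54 bp, down from 2.41%. Chromosome 9 had short regions at 10.9% (9.33 to 12.8%) of its regions, and at 9.14% (7.66 to 10.9%) without its 3 chains. The shares on other autosomes ran from 6.19% on chromosome 12 to 11.7% on chromosome 21 (8.73 to 15.6%).

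A chain on the minus strand of chromosome 19, at 10277274 to 10292753, differed in widths and scores. It held 7 short regions among 8, from 35 to 88 bp, none a multiple of 9, and 5 were in all 3 lists. The last along the strand, 88 bp at 10277274 to 10277361, scored 3100 in each list. The region of 85 bp at 10283766 to 10283850 scored 3100, 3027 and 3100, and that of 79 bp at 10286216 to 10286294 scored 860, 727 and 1888. The region of 35 bp between the 2 strongest, at 10279006 to 10279040, had 183, 98.8 and 200.5. Strong and weak short regions thus lay side by side within 15.5 kb.

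Short regions lay near other regions. A region on the same strand within 10 kb was present for 1460 of the 1992 (73.3%, 71.3 to 75.2%), against 59.6% of all regions, 74.1% (73.0 to 75.1%) of the next width class and 50.7% (49.4 to 51.9%) of those over 1000 bp. The median distance to the nearest was 3530 bp for short regions and 3427 bp for the next width class, and the closest neighbour was 68 bp away. The neighbour was itself short for 20.8% (18.8 to 22.9%) of the 1460, against 12.2% (11.3 to 13.2%) for the next width class. Of all regions with a neighbour within 10 kb, 10.5% had a short one nearest, and of those over 1000 bp 8.35% did. No short region overlapped a region of the opposite strand, nor did any of the 6264 of the next width class, while 60 of all 25737 regions did.

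Short regions found once lay near recurrent ones about as often as wider ones did. Of the 571 short regions in 1 list with a neighbour within 10 kb, 47.1% (43.0 to 51.2%) had a nearest region in all 3 lists, and 49.3% (46.7 to 51.9%) of the corresponding regions of the next width class did. Over the corresponding regions of all widths the share was 48.5% (46.9 to 50.2%). Among all 1992, 532 had no region within 10 kb.

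In chains of 3 or more, short regions sat inside. Of 1049 such short regions, 686 (65.4%, 62.5 to 68.2%) had a region on both sides, against 53.9% of all regions in such chains. A further 22.8% (20.3 to 25.4%) were at the upstream end and 11.8% (10 to 13.9%) at the downstream end. The next width class had nearly the same layout, with 65.8% inside and 10.9% at the downstream end. Regions over 1000 bp had the opposite, with 29.3% (27.2 to 31.5%) inside and 57.6% (55.3 to 60.0%) at the downstream end.

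**Figure D5:**
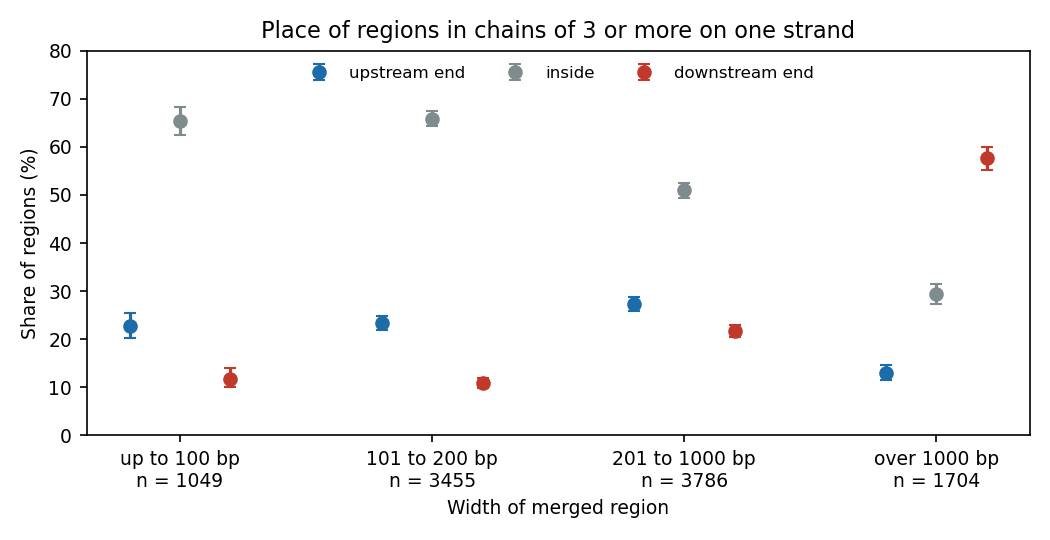
Share of regions (percent, y axis) at the upstream end, inside and at the downstream end of chains of 3 or more regions on one strand, by width class (x axis), with 95% Wilson intervals. Of short regions 65.4% lie inside and 11.8% at the downstream end, while 57.6% of regions over 1000 bp lie at the downstream end.

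Short regions were more often on the plus strand. It held 1109 of them (55.7%, 53.5 to 57.8%), against 51.5% of all regions and 51.9% (50.7 to 53.1%) of the next width class. The list of MeRIP 1 had 53.8% (51.2 to 56.4%) there, that of MeRIP 2 had 56.3% (53.5 to 59.1%) and that of MeRIP 3 had 56.2% (53.4 to 58.9%). In MeRIP 1 the interval overlapped that of the next width class (50.3 to 53.1%). It was 53.5% (49.8 to 57.2%) for the short regions in all 3 lists, an interval that holds 51.5%, and 54.9% (52.6 to 57.1%) without the 4 chains, which are all on the plus strand.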

How the data were processed

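The 3 deposited peak lists, 1 for each MeRIP-seq repeat, hold peaks named after MACS, a peak caller, on hg19, with coordinates, the strand and a score set by the authors. Total RNA was depleted of rRNA and sequenced as paired reads of 150 bp, per the labels' protocols. The submitters' processing notes name cutadapt 1.9.3 and HISAT2 2.0.4; those sources do not state the caller's version and settings, or how peaks were selected or trimmed. Total counts per library cannot be had from peak lists. Peaks sharing at least 1 bp on one strand were merged, width being the end minus the start column. Where a region had several peaks in a list, the highest score was taken. Shares carry 95% Wilson intervals (SciPy 1.17.1), and no test was run. Python 3.11.15, NumPy 2.4.6, pandas 2.3.3 and Matplotlib 3.10.9 were used, and the code was tested on simulated lists. The members and lists were chosen with earlier results of these data known. Named regions are the strongest, narrowest and most variable in all 3 lists, the strongest in 1 list, those at the limit and the chains with most short regions; ties went to the narrower. The narrowest in any list were added. Genes, exons, motifs and sequences were not analysed here, for want of an hg19 reference in use.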

Additional observations from a re-analysis of the deposited data

How the results depend on the processing

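No paired analysis was possible because each list is tied to both samples of a repeat and gives no value for either library. The 1992 short regions became 884 with a limit of 75 bp, 5278 with 150 bp, 1317 with scores of at least 100, 399 with scores at or above each list's median and a mean of 1306 when single peaks of a list were counted. Those in all 3 lists (697) became 286, 2120, 455 and 143 in the first 4 of these settings. Ignoring strand, or asking for 50% of the shorter peak, gave 1992 and 697 again. The mean of the 3 median scores (146.1) was 138 at 75 bp, 165 at 150 bp and 243.5 with scores of at least 100, which leaves out low scores. Widths divisible by 3 (40.3%) were 42.8% at 75 bp. The share with a region within 10 kb (73.3%) was 71.0% at 75 bp, 32.2% within 2 kb and 92.7% within 50 kb. Without 1 repeat, the short regions numbered 1604 to 1797, those in both remaining lists 846 to 869 (47.5 to 52.7%, against 35.0% in all 3 lists), neighbours within 10 kb were found for 70.9 to 72.9%, and rho was 0.71 to 0.76. Leaving out a repeat also changes what counts as shared. Widths divisible by 9 (16.7%), a measure chosen after seeing the data, were 19.0% at 75 bp and 14.0% at 150 bp. Motif and exon alternatives were left out as not run. The lists give no depth, so a short region missing from a list cannot be called unmethylated there.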
